A study of Mus musculus with 6 samples.

Results

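The genes of the cardiac thick filament were described in mouse induced pluripotent stem (iPS) cells, in cultures made from them and in heart-derived cells. They are the myosin heavy chains Myh6, Myh7 and Myh7b, the ventricular light chains Myl2 and Myl3, the atrial light chains Myl4 and Myl7, and the cardiac myosin-binding protein Mybpc3. These 8 genes, of 22180 measured, were taken by name and not by their values, and each was read by 1 probe set. The study holds 6 libraries on Affymetrix Mouse Gene 2.0 ST arrays, each the only library of its group. Values are log2 units made by robust multi-array averaging (RMA), so a difference of 1 is 2-fold. The study compared cells differentiated with dimethyl sulfoxide (DMSO, a solvent that also starts differentiation) or neuregulin 1 (NRG-1, a secreted ligand of ERBB receptors) with heart-derived cells, under a title on ventricular maturation by NRG-1.

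According to the labels, all 6 samples came from female DBA/2J mice. The undifferentiated iPS cells were kept on feeder cells with serum and leukaemia inhibitory factor. The 3 cultures grew as embryoid bodies in suspension for 5 days and were then plated on gelatin with either 1% DMSO, or NRG-1 at 100 ng/ml, or both agents together, and were collected at day 7. No culture was plated without either agent, so a difference from iPS cells covers differentiation and the agents together. The remaining libraries were labelled cardiomyocytes derived from neonatal and from adult mouse hearts, with no age in days. Because every group is a single library, the differences below carry no replicate check and no test, and precision is limited by the small number of arrays.

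The heart-derived libraries went against their labels in sex-linked genes, and their cell markers were not those of cardiomyocytes alone. The Y-linked genes Eif2s3y, Kdm5d and Uty stood at 6.20, 6.17 and 7.14 in the neonatal and at 8.15, 7.02 and 7.55 in the adult library, against 2.75 to 4.06 in the other 4. Xist, the RNA of the inactive X chromosome, was 8.78 in the neonatal, 3.39 in the adult and 5.97 to 6.91 in the other libraries. All 10 fibroblast markers were at least 2-fold higher than in iPS cells in both heart-derived libraries, with list means of 10.25 and 10.62 against 6.44 in iPS cells. Of 14 cardiomyocyte markers, 11 in the neonatal and 12 in the adult comparison reached the median of all values (5.20) in at least 1 library of the pair. Among these, 4 were at least 2-fold higher in the neonatal library (Nppa, Tnnt2, Pln and Actc1) and 1 in the adult library (Tnnt2). Of all genes that reached it, 13.0% and 13.1% were at least 2-fold higher. The mean of that list was 6.64 in the neonatal and 5.62 in the adult library, beside 5.55 in iPS cells and 6.69, 6.32 and 6.64 with DMSO, NRG-1 and both. Ckm and Mb, genes of energy supply in mature muscle, were at 5.37 and 5.39 in the adult library and at 5.08 and 5.24 in iPS cells. In the neonatal library they were at 5.15 and 6.18, Mb differing from iPS cells by 0.94. Pluripotency markers had a mean of 9.27 in iPS cells and of 4.59 to 5.76 elsewhere. Smooth muscle markers had means of 9.57 and 9.76 in the neonatal and adult libraries and of 7.73 to 8.55 in the others, and endothelial, macrophage and skeletal muscle markers had means of 5.28 to 6.85 in all 6. In bulk RNA, fewer cardiomyocytes and less RNA per cardiomyocyte cannot be told apart.

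Cardiac myosin is a motor built from a pair of heavy chains, each carrying an essential and a regulatory light chain. In the mouse, Myh7 (beta) is the main heavy chain of the fetal ventricle and Myh6 (alpha) that of the adult heart, while Myh7b is a slow-type heavy chain of low abundance. Myl2 and Myl3 are the regulatory and essential light chains of the ventricle, and Myl7 and Myl4 those of the atrium. Myl7 and Myl4 are also made throughout the early heart, and Myl3 also in slow skeletal muscle. Mybpc3 binds the thick filament and tunes how myosin heads meet actin.

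The thick filament genes were highest in the cultures, not in the heart-derived libraries. Their median level was 6.34 with DMSO, 6.50 with NRG-1 and 6.91 with both, against 5.20 in iPS cells, 5.65 in the neonatal and 5.27 in the adult library. The 75th percentile of the whole table was 6.93. No member reached it in the iPS, neonatal or adult library, whereas 2 did with DMSO, 2 with NRG-1 and 4 with both. The table has no detection values. As a reference for weak signal, 1105 olfactory receptor genes had medians of 2.99 to 3.08 and 95th percentiles of 4.91 to 5.08 in the 6 libraries. Myl3 and Myl7 in iPS cells, and Myh6, Myh7 and Myl7 in the adult library, lay below that 95th percentile of their library, Myl7 in iPS cells only just. Where a difference of the thick filament genes rests on such a value it is also given with the value raised to that percentile, a limit chosen after the data were seen. Differences of genes in the other lists are given only as measured. Differences of Myl7 from iPS cells in the cultures are given only as measured, because its iPS value lay so close to the limit. Levels of different genes are not compared, because probes differ in brightness.

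**Figure D1:**
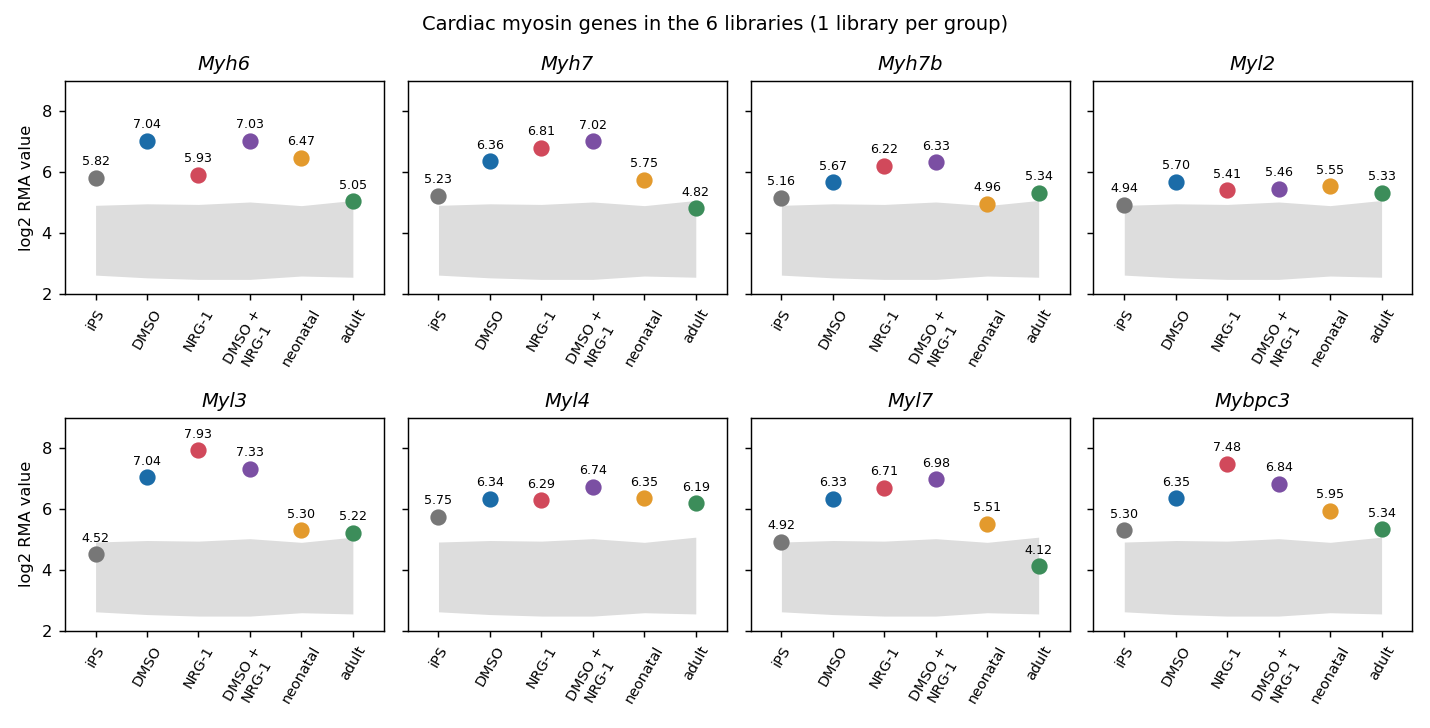
Each panel plots the log2 RMA value of 1 gene (vertical axis) in the 6 libraries (horizontal axis), 1 point per library with its value. The grey band runs from the 25th to the 95th percentile of the olfactory receptor genes. Myl3 ranged from 4.52 in iPS cells to 7.93 with NRG-1, while Myl2 stayed between 4.94 and 5.70.

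Among the heavy chains, Myh6 stood at 5.82 in iPS cells, 7.04 with DMSO, 5.93 with NRG-1, 7.03 with both, 6.47 in the neonatal and 5.05 in the adult library. It was thus high in both cultures that received DMSO and near the iPS level with NRG-1 alone. Myh7 was 5.23 in iPS cells, 6.36 with DMSO, 6.81 with NRG-1, 7.02 with both, 5.75 in the neonatal and 4.82 in the adult library. It was higher in all 3 cultures than in the heart-derived cells, and highest where NRG-1 was present. Myh7b was 5.16 in iPS cells, 5.67 with DMSO, 6.22 with NRG-1, 6.33 with both, 4.96 in the neonatal and 5.34 in the adult library, the same order among the cultures as Myh7. The only guide to error is how far probe sets of the same gene disagree, which had an SD of 0.20 to 0.60 in the 12 comparisons made. Myh6 with DMSO and with both, Myh7 with NRG-1 and with both, and Myh7b with NRG-1 and with both are neighbours closer together than the SD for their pair of libraries.

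Of the ventricular light chains, Myl2 had 4.94 in iPS cells, 5.70 with DMSO, 5.41 with NRG-1, 5.46 with both, 5.55 in the neonatal and 5.33 in the adult library. Its range of 0.76 (1.69-fold) was the smallest of the 8 genes. Myl3 had the widest range of measured values, 3.41, with 4.52 in iPS cells, 7.04 with DMSO, 7.93 with NRG-1, 7.33 with both, 5.30 in the neonatal and 5.22 in the adult library. Its iPS value was weak, and against the iPS olfactory 95th percentile Myl3 was 4.35-fold, 8.07-fold and 5.30-fold higher with DMSO, NRG-1 and both, where Myl2 was 1.69-fold, 1.39-fold and 1.44-fold above its iPS value.

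The atrial light chains also differed from each other. Myl7 was 4.92 in iPS cells, 6.33 with DMSO, 6.71 with NRG-1, 6.98 with both, 5.51 in the neonatal and 4.12 in the adult library. Its order over the 6 libraries was the same as that of Myh7, and the mean-centred profiles of Myl7 and Myh7 were the closest of any pair among the 6 members with a range of at least 1 (root mean square difference 0.23). Myl4 was 5.75 in iPS cells, 6.34 with DMSO, 6.29 with NRG-1, 6.74 with both, 6.35 in the neonatal and 6.19 in the adult library. It was close to its DMSO and NRG-1 levels in both heart-derived libraries, and its range of 0.99 was the next narrowest after Myl2.

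Mybpc3 was 5.30 in iPS cells, 6.35 with DMSO, 7.48 with NRG-1, 6.84 with both, 5.95 in the neonatal and 5.34 in the adult library. Like Myl3, it was highest with NRG-1 alone, intermediate with both agents and lowest of the cultures with DMSO.

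The upstream sequences of Myl3, Mybpc3 and Myl7 are shown because, taking for each gene its largest difference between a culture and iPS cells, these 3 genes led. Each is the 250 bases before the gene start in RefSeq (build GRCm38.p6), printed 5′ to 3′ along the gene's own strand. Capitals mark matches, on either strand, to GATAA (the core bound by GATA factors), CATTCC (MCAT, bound by TEAD factors), the CArG box of serum response factor and the MEF2 site. No 2 matches overlap. They lie at chr9:110763428-110763677 (plus strand) for Myl3, chr2:91117894-91118143 (plus strand) for Mybpc3 and chr11:5898783-5899032 (minus strand) for Myl7.
Myl3: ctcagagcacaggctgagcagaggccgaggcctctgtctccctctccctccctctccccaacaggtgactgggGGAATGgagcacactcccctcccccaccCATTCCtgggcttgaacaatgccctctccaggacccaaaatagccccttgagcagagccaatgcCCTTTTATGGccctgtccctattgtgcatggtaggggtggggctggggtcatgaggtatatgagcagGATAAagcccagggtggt
Mybpc3: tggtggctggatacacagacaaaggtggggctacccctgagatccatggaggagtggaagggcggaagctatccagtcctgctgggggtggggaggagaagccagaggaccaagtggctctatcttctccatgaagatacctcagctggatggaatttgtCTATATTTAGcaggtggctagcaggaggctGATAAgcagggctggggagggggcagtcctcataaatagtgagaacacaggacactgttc
Myl7: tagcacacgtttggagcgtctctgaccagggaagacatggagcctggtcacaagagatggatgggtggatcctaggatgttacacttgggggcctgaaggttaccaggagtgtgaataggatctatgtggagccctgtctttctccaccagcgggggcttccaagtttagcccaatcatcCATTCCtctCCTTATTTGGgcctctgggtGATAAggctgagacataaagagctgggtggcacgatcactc

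In these windows Myl3 held 1 CArG box, 85 to 76 bases before the start, 2 MCAT matches and 1 GATAA. Myl7 held 1 CArG box, 61 to 52 bases before the start, 1 MCAT match and 1 GATAA. Mybpc3 held 1 MEF2 site, 90 to 81 bases before the start, and 1 GATAA. Over the 10 windows of the 8 genes, 5 held GATAA, 4 MCAT, 2 CArG and 1 MEF2. Among all 32851 windows of this length the shares were 22.6%, 12.6%, 1.47% and 2.92%. A match describes the letters of a window and is not a binding site.

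All 8 genes were higher in each of the 3 cultures than in iPS cells, some by no more than the probe set SD. Counts cover genes that reached the table median of 5.20 in at least 1 library of the pair, which all 8 members did here. With DMSO, 5 of 8 (Myh6, Myh7, Myl3, Myl7 and Mybpc3) were at least 2-fold higher and 0 lower, against 13.1% of 13741 genes higher and 13.3% lower. With NRG-1, 5 of 8 (Myh7, Myh7b, Myl3, Myl7 and Mybpc3) were higher and 0 lower, against 11.3% of 13763 genes higher and 14.5% lower. With both, 6 of 8 were higher, all but Myl2 and Myl4, and 0 lower, against 13.0% of 13696 genes higher and 13.1% lower. The median differences of the 8 genes were 1.09, 1.32 and 1.38, beside medians of -0.01, -0.02 and -0.02 over all genes. These comparisons share the iPS library and are not independent.

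Myl3 differed by 2.52, 3.41 and 2.81 on the log2 scale with DMSO, NRG-1 and both as measured, and by 2.12, 3.01 and 2.41 with its weak iPS value of 4.52 raised to the olfactory 95th percentile of 4.92. On either footing these were the largest differences of the 8 genes in each culture. Mybpc3 differed by 1.05, 2.18 and 1.54 with DMSO, NRG-1 and both, and Myl7 by 1.41, 1.80 and 2.06. Myh7 differed by 1.13, 1.58 and 1.79. For Myh6 the differences were 1.22 with DMSO and 1.21 with both but 0.11 with NRG-1. The probe set SD was 0.55, 0.60 and 0.56 in these comparisons, so the differences of Myl2 (0.76, 0.47 and 0.53) were of about that size or smaller. So were those of Myl4 with DMSO and NRG-1 (0.59 and 0.54), Myh7b with DMSO (0.51) and Myh6 with NRG-1.

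The heart-derived libraries differed less from iPS cells in these genes. In the neonatal library 0 of 8 were at least 2-fold higher or lower, against 13.0% and 11.2% of 13582 genes, and 7 of 8 passed the filter (not Myh7b). Members other than Myh7b were 0.52 to 0.78 above iPS cells, within or near the probe set SD of 0.59, and Myh7b differed by -0.21. In the adult library 0 of 8 were at least 2-fold apart, against 13.1% of 13760 genes higher and 14.1% lower, and 7 of 8 passed the filter (not Myl7). Myh6, the heavy chain of the adult mouse heart, differed by -0.77 there and Myl7 by -0.80, whereas Myl3 differed by 0.70. With weak values raised to the olfactory 95th percentile these became -0.74, 0.16 and 0.30, so the direction of Myl7 in the adult library rests on values in the weak range, and Myl3 differed by 0.38 in the neonatal library.

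**Figure D2:**
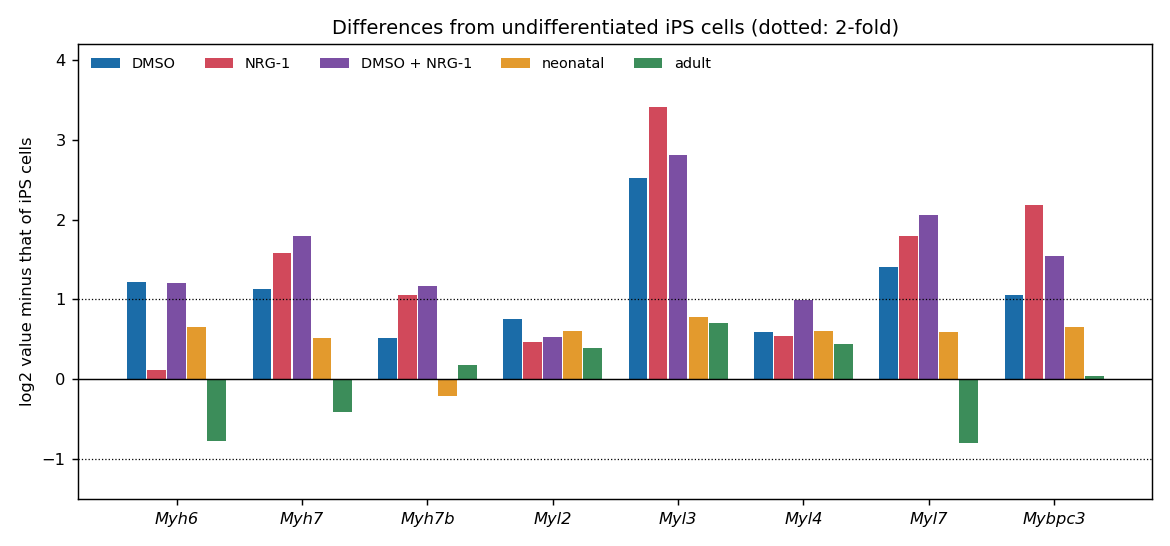
Bars give the log2 value of each gene in a library minus its value in iPS cells (vertical axis), with 5 bars per gene coloured by library and dotted lines at a 2-fold difference. All bars of the 3 cultures lie above 0, Myl3 with NRG-1 reaching 3.41, and no bar of the neonatal or adult library passes 2-fold.

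Between the adult and neonatal libraries, 2 of 8 genes, Myh6 and Myl7, were at least 2-fold lower in the adult library and 0 higher, against 2.92% of 13164 genes lower and 2.52% higher. Myh6 differed by -1.42, Myl7 by -1.39 and Myh7 by -0.93, with a probe set SD of 0.34, but all 3 lay below the olfactory 95th percentile of 5.08 in the adult library. Raised to it they differed by -1.39, -0.43 and -0.67, which leaves 1 of 8 genes, Myh6, at least 2-fold lower. Mybpc3 differed by -0.61. Myl2, Myl3 and Myl4 differed by -0.22, -0.08 and -0.16, and Myh7b by 0.38. In the same comparison 5 of 14 cardiomyocyte markers were at least 2-fold lower and 0 higher, Nppa differing by -5.26, Pln by -2.54, Actc1 by -2.31 and Tnnt2 by -1.54. Epithelial markers were at least 2-fold lower for 3 of 5 (Krt8 by -2.47), and 3 of 7 macrophage markers (Lyz2 by 2.26), 2 of 10 fibroblast markers (Postn by 1.49) and 2 of 6 endothelial markers (Cdh5 by 1.37) were at least 2-fold higher. Their part in the myosin differences was not tested.

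The cultures were set against the neonatal library to ask how far their thick filament genes stood from those of heart-derived cells. With DMSO, 1 of 8 genes (Myl3) was at least 2-fold higher and 0 lower, against 9.23% and 10.4% of 13466 genes. With NRG-1, 5 of 8 were higher (Myh7, Myh7b, Myl3, Myl7 and Mybpc3) and 0 lower, against 8.95% and 12.7% of 13571 genes. With both, 4 of 8 were higher (Myh7, Myh7b, Myl3 and Myl7) and 0 lower, against 9.38% and 10.4% of 13430 genes. Myl3 differed from the neonatal library by 1.74, 2.63 and 2.03 with DMSO, NRG-1 and both, and Myl2 by 0.15, -0.14 and -0.08. These values are set against a library whose fibroblast markers were 7 to 9 of 10 at least 2-fold higher than in the cultures, and the part of that in them was not tested.

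When the cultures were set against each other, the thick filament genes did not all differ in the same direction. With 1 library per culture, an effect of an agent and variation between cultures cannot be told apart. From DMSO to NRG-1, Mybpc3 differed by 1.13 (2.19-fold higher) and Myh6 by -1.11 (2.15-fold lower), so that 1 of 8 genes was at least 2-fold higher and 1 lower, against 0.36% of 13343 genes higher and 1.78% lower. Only 29 genes were as far above as Mybpc3 and 166 as far below as Myh6. Myl3 differed by 0.89, a size reached by 84 genes (0.63%), and Myh7b, Myh7 and Myl7 by 0.56, 0.45 and 0.38. Myl4 and Myl2 differed by -0.05 and -0.28. The probe set SD was 0.30, which Myl2 and Myl4 did not exceed. With each library shifted to an equal median of 10 housekeeping genes, Myh6 differed by -0.88 and no longer by 2-fold, and Myl3 differed by 1.12, past 2-fold.

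Between DMSO with and without NRG-1, 0 of 8 thick filament genes differed by 2-fold, against 0.0455% of 13198 genes higher and 0.053% lower. Within that narrow spread (SD 0.21 over all genes, probe set SD 0.20), Myh7 differed by 0.66, Myh7b by 0.66 and Myl7 by 0.65, sizes reached by 53, 52 and 60 genes. Mybpc3 differed by 0.49, Myl4 by 0.39 and Myl3 by 0.28. Myh6 and Myl2 differed by -0.01 and -0.23. Between NRG-1 with and without DMSO, Myh6 was higher by 1.10 (2.14-fold) where DMSO was present, so that 1 of 8 genes was at least 2-fold higher and 0 lower, against 1.08% of 13303 genes higher and 0.293% lower. Mybpc3 and Myl3 differed by -0.64 and -0.61 in that comparison, and the remaining genes by 0.05 to 0.45. Under the housekeeping shift Myh6 differed by 0.91 there. The culture comparisons share libraries, so the values of Myh6 in them are not independent.

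**Figure D3:**
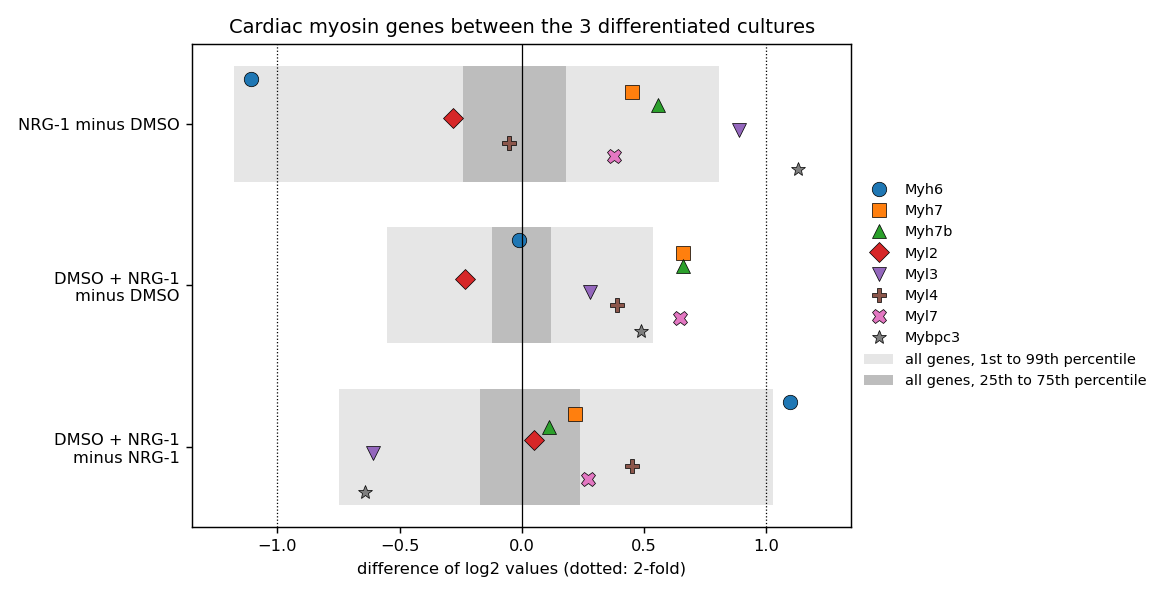
Points give the difference of log2 values between 2 cultures (horizontal axis) for each thick filament gene, over bars for all genes that passed the filter, light from the 1st to the 99th percentile and dark from the 25th to the 75th, with dotted lines at 2-fold. Myh6 lies at -1.11, -0.01 and 1.10 from top to bottom and Mybpc3 at 1.13, 0.49 and -0.64.

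Some cell markers differed in the same direction as these genes. From DMSO to NRG-1 the cardiomyocyte markers Actn2 (a Z-disc actinin), Actc1 (cardiac actin) and Tnnt2 (cardiac troponin T) differed by -1.24, -0.98 and -0.82, the same direction as Myh6. Tnnc1, Ryr2, Ldb3 and Mb from the same list differed the other way, by 0.41, 0.25, 0.19 and 0.16. Of the 14 markers in that list only Actn2 differed by at least 2-fold, and the median was -0.39. Some fibroblast markers ran the same way and nearly as far, Lum, Postn, Dcn and Ddr2 differing by -1.04, -0.99, -0.97 and -0.82. Pdgfra and Thy1 differed the other way, by 0.22 and 0.21. In that list 1 of 10 was at least 2-fold lower, and the median was -0.41. The endoderm markers Afp, Ttr, Apoa1 and Foxa2, genes of yolk sac and liver-forming endoderm, differed by 0.76, 0.61, 0.52 and 0.46, the same direction as Myl3 and Mybpc3. Against iPS cells all 5 endoderm markers were at least 2-fold higher in each culture, with list means of 9.43, 9.98 and 9.55 with DMSO, NRG-1 and both, against 5.75 in iPS cells and in the neonatal library and 6.05 in the adult library. In each culture 7 of 10 fibroblast markers and 3 of 7 macrophage markers were also at least 2-fold higher than in iPS cells and 0 lower. They came from 9 and 4 that passed the filter, against 13.1%, 11.3% and 13.0% of all genes higher with DMSO, NRG-1 and both. The macrophage markers were split, Cd68 differing by 3.09, 2.76 and 3.16 but C1qa by -0.61, -0.76 and -0.56. Epithelial markers had means of 10.91, 10.90 and 10.77 in the cultures and 7.75 in iPS cells. Whether such cell types had a part in the myosin values was not tested.

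**Figure D4:**
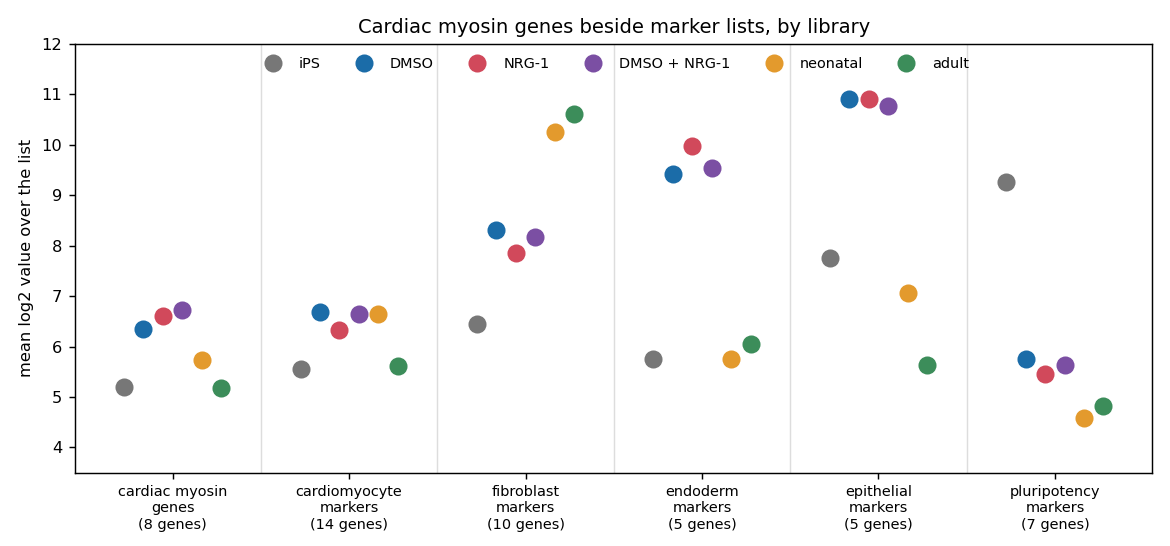
Points give the mean log2 value over a list (vertical axis) in each of the 6 libraries, for the 8 thick filament genes and 5 lists of cell markers. The heart-derived libraries lead in fibroblast markers (10.25 and 10.62), and the 3 cultures lead in thick filament genes, endoderm and epithelial markers.

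Which chain of a pair prevailed was followed through the gap between partner genes within a library. The gap itself depends on the probes, and only its change between libraries is read. From iPS cells, the gap of Myh6 over Myh7 differed by 0.09 with DMSO, -1.47 with NRG-1, -0.58 with both and 0.13 in the neonatal library. In the adult library it differed by -0.36, or by -0.59 with weak values raised to the olfactory 95th percentile. It lay furthest toward Myh7, the fetal heavy chain, with NRG-1 alone. The gap of Myl2 over Myl7, ventricular over atrial regulatory chain, differed by -0.66, -1.32 and -1.54 with DMSO, NRG-1 and both, by 0.02 in the neonatal and by 1.18 in the adult library. The gap of Myl3 over Myl4, ventricular over atrial essential chain, differed by 1.93, 2.87 and 1.82 in the cultures and by 0.18 and 0.26 in the neonatal and adult libraries. With weak values raised to the olfactory 95th percentile, the Myl3 over Myl4 values were 1.53, 2.47 and 1.42 in the cultures and -0.22 and -0.14 in the neonatal and adult libraries, and the Myl2 over Myl7 values -0.65, -1.32 and -1.54 in the cultures and 0.23 in the adult library. In the cultures the regulatory pair thus lay further toward the atrial gene and the essential pair toward the ventricular gene, with or without that limit. The probe set SD against iPS cells was 0.55 to 0.60 for a single gene, and a gap joins 2 genes, so its error can be larger. The Myl2 over Myl7 value with DMSO (-0.66) and the Myh6 over Myh7 value with both (-0.58) were of about that size. The gap of Myh7b over Myh7 differed by -0.52 to -0.73 in the cultures and the neonatal library and by 0.59 in the adult library, also of about that size. With weak values raised, the adult value was 0.33.

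**Figure D5:**
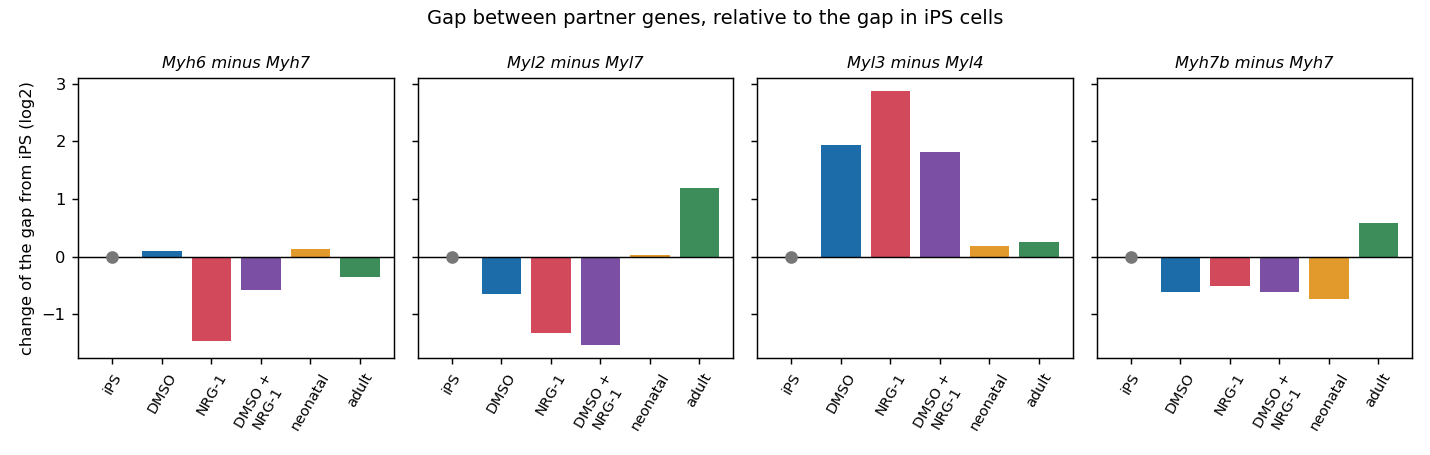
Bars give the gap between partner genes in a library minus the gap in iPS cells (log2, vertical axis), for 4 pairs. The Myl3 over Myl4 gap is larger than in iPS cells in all 3 cultures (1.82 to 2.87), and the Myl2 over Myl7 gap is smaller (-0.66 to -1.54).

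The 3 myosin heavy chain genes each carry a microRNA of heart and slow muscle within their span. The mature sequences from RefSeq (GRCm38.p6) are shown because each microRNA is read by a probe set separate from that of its host. They are miR-208a in Myh6 (chr14:54949072-54949093, minus strand), miR-208b in Myh7 (chr14:54975710-54975731, minus strand) and miR-499 in Myh7b (chr2:155622893-155622913, plus strand). Capitals mark the seed, bases 2 to 8.
mmu-miR-208a-3p: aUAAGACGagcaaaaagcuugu
mmu-miR-208b-3p: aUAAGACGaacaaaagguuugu
mmu-miR-499-5p: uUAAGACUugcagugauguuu

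miR-208a and miR-208b share the seed UAAGACG and 19 of 22 bases, while miR-499 has the seed UAAGACU. The array values of Mir208a were 2.74 with NRG-1 and 3.17 to 3.43 in the other 5 libraries. Those of Mir208b were 2.28 to 2.56 and those of Mir499 3.29 to 3.72. All these lay at or below the 16th percentile of genes in their library, and none passed the filter. Mir208a, like its host Myh6, was lowest of the cultures with NRG-1 alone. Mir499 was lowest of the cultures with both agents (3.30), where its host Myh7b was highest (6.33). Mir208b was 2.36 to 2.40 in the cultures, while its host Myh7 was 6.36 to 7.02. All these microRNA values were at levels within the range of the olfactory receptor genes, so they could not serve as a check of the host genes.

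Other lists of myosin genes had smaller median differences between the cultures and iPS cells than the 8 thick filament genes. Of 12 measured skeletal and developmental myosin genes, only Mylpf (skeletal regulatory light chain) passed the filter in the culture comparisons with iPS cells. The rest were too weak to be counted in either direction. Mylpf was far lower in every other library, 4.22 to 4.56 against 8.17 in iPS cells. Of the 9 smooth muscle and non-muscle myosin genes, 3 were at least 2-fold higher with DMSO, NRG-1 and both (Myl9, Myh9 and Myl12a), against 13.1%, 11.3% and 13.0% of all genes. From the same list 1, 1 and 2 were lower, against 13.3%, 14.5% and 13.1% of all genes. The list medians were 0.44, 0.15 and 0.41. Myl9, a smooth muscle regulatory light chain, was highest in the adult (11.41) and neonatal (10.65) libraries.

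Among 17 measured genes of myosin folding, phosphorylation and the thick filament, 3, 2 and 3 were at least 2-fold higher with DMSO, NRG-1 and both, and 0 lower, from 11, 9 and 11 that passed the filter, against 13.1%, 11.3% and 13.0% of all genes. Myom1, which crosslinks thick filaments at the M-band, differed from iPS cells by 1.51, 1.33 and 1.68 in the cultures. In the neonatal and adult libraries it differed by 0.84 and 0.78. Its iPS value of 4.02 lay below the iPS olfactory 95th percentile of 4.92, so the size of all these differences rests on a weak value. The kinase gene Camk2d differed by 2.22, 1.92 and 2.17 in the cultures, and by 2.08 in the neonatal and 2.09 in the adult library. The myosin chaperone Unc45b and the cardiac myosin light chain kinase Mylk3 were at 4.64 to 4.99 and 4.25 to 4.79 in the 6 libraries. All these values were below the filter's 5.20 and in or near the weak range, so they cannot show whether the genes changed. Of 22 measured transcription factors known to act on cardiac myosin genes, 9, 9 and 10 were at least 2-fold higher with DMSO, NRG-1 and both and 0 lower, from 18, 17 and 20 that passed the filter, against the same shares of all genes. In the neonatal and adult libraries, where 0 of the 8 thick filament genes reached 2-fold, 10 and 6 of these factors did and 0 were lower, so their higher values were not particular to the cultures. Gata4 differed by 2.77, 3.31 and 3.11, and Mef2a by 2.01, 1.67 and 2.06. From DMSO to NRG-1 none of the 22 reached 2-fold, the largest being Hand1 (-0.85) and Sox6 (-0.72).

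For the 6 members with a range of at least 1, the genes with the most similar mean-centred profile over the 6 libraries were sought among 13325 others. Nearest to Myl3 were Tcf7l2, Rgs17 and Foxa2, with root mean square differences of 0.20, 0.22 and 0.24 log2 units. Nearest to Mybpc3 were Apoa4, Procr and Lrrc38 (0.22, 0.23 and 0.23), and nearest to Myh6 were Slc38a4, Des and Krt14 (0.21, 0.27 and 0.28), Des being the muscle intermediate filament desmin. Myh7 lay nearest to Prickle1, Slc14a1 and Adgrl2 (0.14, 0.14 and 0.15), and Myl7 nearest to Adgrl2, Prss35 and Prickle1 (0.21, 0.24 and 0.26). Myh7b lay nearest to Mknk2, Ampd1 and Tincr (0.15, 0.15 and 0.16). Over the 4 libraries without the heart-derived ones, only Tcf7l2 for Myl3 was again among the nearest 3, and for the other 5 members 0 of 3 were.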

How the data were processed

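The values are log2 expression values that the authors made with RMA from Affymetrix Mouse Gene 2.0 ST arrays and deposited as a table of 41345 probe sets, per the submitters' processing notes. The sources used here do not name the RMA software or its version, and the log2 scale follows from the range of the values. RMA equalises the distributions of the arrays (their sorted values lie within 0.285 of each other), which hides a shift shared by most genes. Labelling began from 300 ng total RNA, per the labels' protocols.

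Probe sets were named by the platform annotation: 23521 have 1 gene symbol, and a gene's value is the mean over its probe sets. Differences of log2 values were computed for 12 pairs of libraries in Python 3.11.15 (pandas 2.3.3), without a test because each group has 1 library. Counts took genes whose higher value reached the table median, at a 2-fold difference. The probe set SD is the SD, over genes with 2 probe sets, of the disagreement of their differences divided by the square root of 2. The text names all 8 members, up to 4 members of a list with the largest differences, sex-linked genes, and the 3 genes nearest in profile to a member, leaving out predicted and small RNA names. Other list genes given as examples (Ckm, Mb, Unc45b, Mylk3) were chosen after their values were seen, as were the markers named as differing the other way from DMSO to NRG-1. The members, lists and rules were chosen with earlier results of these data known. Alternatives were cyclic loess (limma 3.58.1), a housekeeping shift, the brightest probe set, other filters and other folds, and after the data were seen, profiles without the heart-derived libraries and weak values raised to the olfactory 95th percentile. The counting and profile steps were tested on simulated data.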

Additional observations from a re-analysis of the deposited data

Results flagged for a closer look

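Myh6 and Myl7 ran opposite ways from iPS cells in the neonatal and adult libraries, by at least 1.5-fold each way. Myh6 differed by 0.65 in the neonatal and by -0.77 in the adult library, and Myl7 by 0.59 and -0.80. The difference was not tested, since each library is the only one of its group. Both genes lay below the 95th percentile of the olfactory receptor genes and below the filter's 5.20 in the adult library, and Myl7 did so in iPS cells too, so its -0.80 compares 2 weak values and becomes 0.16 when they are raised to that percentile. Myh6 became -0.74.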

How the results depend on the processing

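Cyclic loess moved the 96 differences of single members by at most 0.13, the housekeeping shift by at most 0.26 and the brightest probe set by 0, since each member has 1 probe set. No 2-fold difference of a member changed sign under these 3, but counts against iPS cells moved by 1 gene. Under cyclic loess 4 genes were higher with DMSO and 4 with NRG-1, Mybpc3 (0.99) and Myh7b (0.94) falling just short. Under the housekeeping shift 7 were higher with both, Myl4 (1.06) being added. The housekeeping genes themselves differed unevenly (from -1.11 to 3.47 between neonatal and iPS), so that shift depends on their choice. It gave 2 genes higher and 0 lower from DMSO to NRG-1 and 0 higher from NRG-1 to both. Filtering at the 75th percentile left 2 genes higher with DMSO and 2 with NRG-1 than in iPS cells, 2 with NRG-1 than in the neonatal library, and 0 lower in the adult against the neonatal library; no filter changed no count by over 1.5 times. At 1.5-fold, 6 were higher in the neonatal library than in iPS cells, 1 higher and 1 lower in the adult, 4 lower in the adult against the neonatal library, 2 higher from DMSO to NRG-1, 3 higher from DMSO to both, 2 lower from NRG-1 to both and 4 higher with DMSO than in the neonatal library. At 4-fold, 1, 2 and 2 were higher with DMSO, NRG-1 and both than in iPS cells, 0, 1 and 1 than in the neonatal library, and 0 in the adult against neonatal, NRG-1 against DMSO and both against NRG-1 comparisons. Under cyclic loess the 3 genes nearest to Myh7b were all replaced. The cause was not tested. With weak values raised to the olfactory 95th percentile, an alternative chosen after the data were seen, 1 gene was lower in the adult against the neonatal library, and no other count moved. No paired analysis was possible because each group has 1 library. Leaving out a library was not possible within a group either.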
